A study of Homo sapiens with 9 samples.

Results

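FA at day 21 was examined on 4 of the 9 arrays of a series on NCCIT, a human embryonal carcinoma cell line. The 4 arrays are all those of embryoid bodies kept for 21 days: 2 with the additive labelled FA (FA alone, and FA with ethanol) and 2 without it (no addition, and ethanol alone). They form 2 matched pairs, FA minus untreated and EtOH+FA minus EtOH, so that ethanol is the same within each pair. Ethanol was used at 50 mM; the labels do not spell out FA or give its dose, and it is called FA throughout. Each condition is 1 array, all 4 share the cell line and the suspension culture in serum-containing medium, and nothing in the labels says whether the arrays came from separate cultures. All that the p-values measure is therefore how far these arrays vary, and that variation may be technical. The other arrays are the same 4 conditions at day 7 and 1 of undifferentiated cells. They enter as a measure of spread, in the filter that decides which genes are tested, and for comparison.

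Embryonal carcinoma cells are the malignant counterpart of early embryonic stem-like cells. Aggregated as embryoid bodies they lose pluripotency transcripts step by step and begin to express genes of the germ layers. The transcripts of the miR-302 cluster are a mark of the pluripotent state: the 3p arms of miR-302a and miR-302b share a seed, the bases with which a microRNA pairs with its targets, and members of the cluster repress cell cycle inhibitors and differentiation genes. FGF ligands act in the same cells through receptor tyrosine kinases and ERK, and ERK activity in turn raises transcription of its own inhibitors of the Sprouty family and of ETS factors such as ETV5. The values are log2 expression levels, so a difference of 1 is a 2-fold change, and a difference between conditions is given as with FA minus without FA.

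The miR-302 sequences are shown because MIR302B had one of the largest differences with FA that both pairs share, as described further on. The clusters measured the transcript of the locus, not the mature microRNA. RefSeq (GRCh38.p14) places the mature arms on chromosome 4, minus strand, at chr4:112648186-112648208 for hsa-miR-302a-3p and chr4:112648489-112648511 for hsa-miR-302b-3p. Capitals mark the seed, bases 2 to 8, which both share.
hsa-miR-302a-3p: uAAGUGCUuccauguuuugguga
hsa-miR-302b-3p: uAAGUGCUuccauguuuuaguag

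Differences with FA at day 21 were small, and none passed the test. Of 12254 genes tested, 0 were higher and 0 lower at a Benjamini-Hochberg adjusted p under 0.05 in limma (0% called), and the lowest adjusted p was 0.557. The 2 residual degrees of freedom of this test are the differences between the pairs of each day. Its spread thus includes the day 7 array with ethanol alone, described below as standing apart. A fit of the day 21 arrays on their own is given further on. At an unadjusted p under 0.05, 321 genes were higher (2.62%) and 734 lower (5.99%). The median absolute difference was 0.08, close to the median standard error of 0.07, and the mean difference of the pairs ran from -0.72 to 0.53 over all genes. No gene reached 1.5-fold in both pairs (0%), against 4 when the arrays were also centred on their medians. At 1.3-fold, a limit chosen after the values were seen, 11 genes were lower in both pairs (0.0898%) and 2 were higher (0.0163%), or 18 and 2 with centred arrays. Of all genes tested, 26.4% were higher and 44.3% lower in both pairs, and these shares are the background for the gene lists below. Both FA arrays lay above both other arrays for 18.3% of genes and below both for 27.6%. The pairs share no array, and across genes their differences correlated at r = 0.55, a description in which genes are not independent and all 4 arrays were normalized together. Of the day 21 sum of squares over the genes tested, 38.2% lay in the FA contrast, 50.9% in the ethanol contrast and 10.9% in the difference between the pairs.

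**Figure D1:**
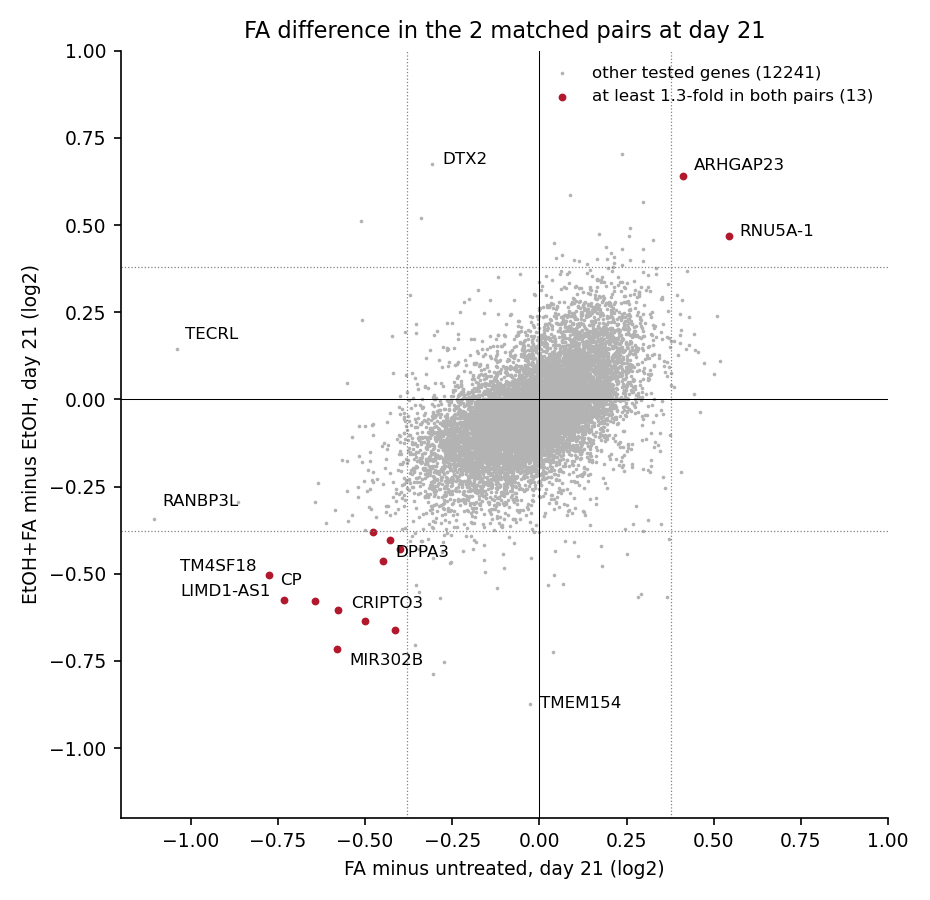
Each point is 1 of the 12254 genes tested, with the log2 difference FA minus untreated at day 21 on the horizontal axis and EtOH+FA minus EtOH on the vertical axis; dotted lines mark 1.3-fold and red points are the 13 genes past it in both pairs. The cloud is elongated along the diagonal, 11 of the 13 red points lie at the lower left, and TECRL, DTX2 and TMEM154 lie off the diagonal.

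Of the named genes lower with FA, CP and CRIPTO3 had the largest differences shared by both pairs. CP, which codes for the copper-carrying plasma protein ceruloplasmin, was at 10.68 in untreated and 10.04 in FA embryoid bodies, and at 10.23 with ethanol and 9.65 with ethanol and FA. Both FA arrays were below both others, and the mean difference was -0.61 ± 0.08 (SE, 2 pairs; limma adjusted p = 0.557). CRIPTO3 is a near-identical copy of CRIPTO, the gene of a co-receptor for Nodal, and probes may not tell the copies apart. It was at 8.25 untreated and 7.67 with FA, and at 8.89 with ethanol and 8.29 with both. The differences were -0.58 and -0.60, although the EtOH+FA array was not below the untreated one, because both ethanol arrays were higher. CRIPTO itself, at 9.98, 9.70, 10.51 and 10.21 in the same order, differed by -0.28 and -0.30.

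LIMD1-AS1, an antisense RNA of LIMD1, was at 8.32 untreated, 7.59 with FA, 7.95 with ethanol and 7.37 with both, a mean difference of -0.65 ± 0.14. Its sense partner LIMD1, looked at after its values were seen, differed by 0.04 and -0.03. So the lower value belonged to the antisense cluster and not to that of the sense gene. TM4SF18, a member of the tetraspanin-like L6 family, was at 8.63, 7.85, 8.61 and 8.10 in the order untreated, FA, ethanol, ethanol with FA. TM4SF18 is the next tested gene to CP on chromosome 3 in the RefSeq order (GRCh38.p14); on the outer sides HPS3 differed by -0.32 and 0.03 and WWTR1 by -0.03 and 0.00. RTL9, a gene derived from a retrotransposon Gag sequence, is next to CRIPTO3 on chromosome X and differed by -0.37 and -0.41, while CHRDL1 on the other side of CRIPTO3 differed by -0.04 and 0.10.

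BCO1, whose enzyme cleaves beta-carotene to retinal, was at 8.25 untreated, 7.75 with FA, 7.94 with ethanol and 7.30 with both, and its groups did not overlap. MAS1, a G protein-coupled receptor gene, was at 6.11, 5.70, 6.68 and 6.02, below the median of all values (7.71) on every day 21 array, so its difference of -0.54 ± 0.08 concerns a dim signal. LOX and COL14A1 were also among the 15 named lower genes, while the mesenchyme and matrix list, given below, was near the background. LOX, the enzyme that cross-links collagen and elastin, differed by -0.37 and -0.39, and the collagen gene COL14A1 by -0.36 and -0.70. The remaining named lower genes lay between -0.37 and -0.42 in the mean: IKBIP, SNAPC1, a subunit of the complex that drives small nuclear RNA genes, ZNF345 and the serotonin receptor gene HTR2C. Of the 15, 10 had both FA arrays below both others (the background is 27.6%, and the 15 were chosen for their difference in both pairs, so the count is no support). The exceptions were CRIPTO3, DPPA3, ETV5, RTL9 and LOX, whose levels also differed between the arrays with and without ethanol.

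**Figure D2:**
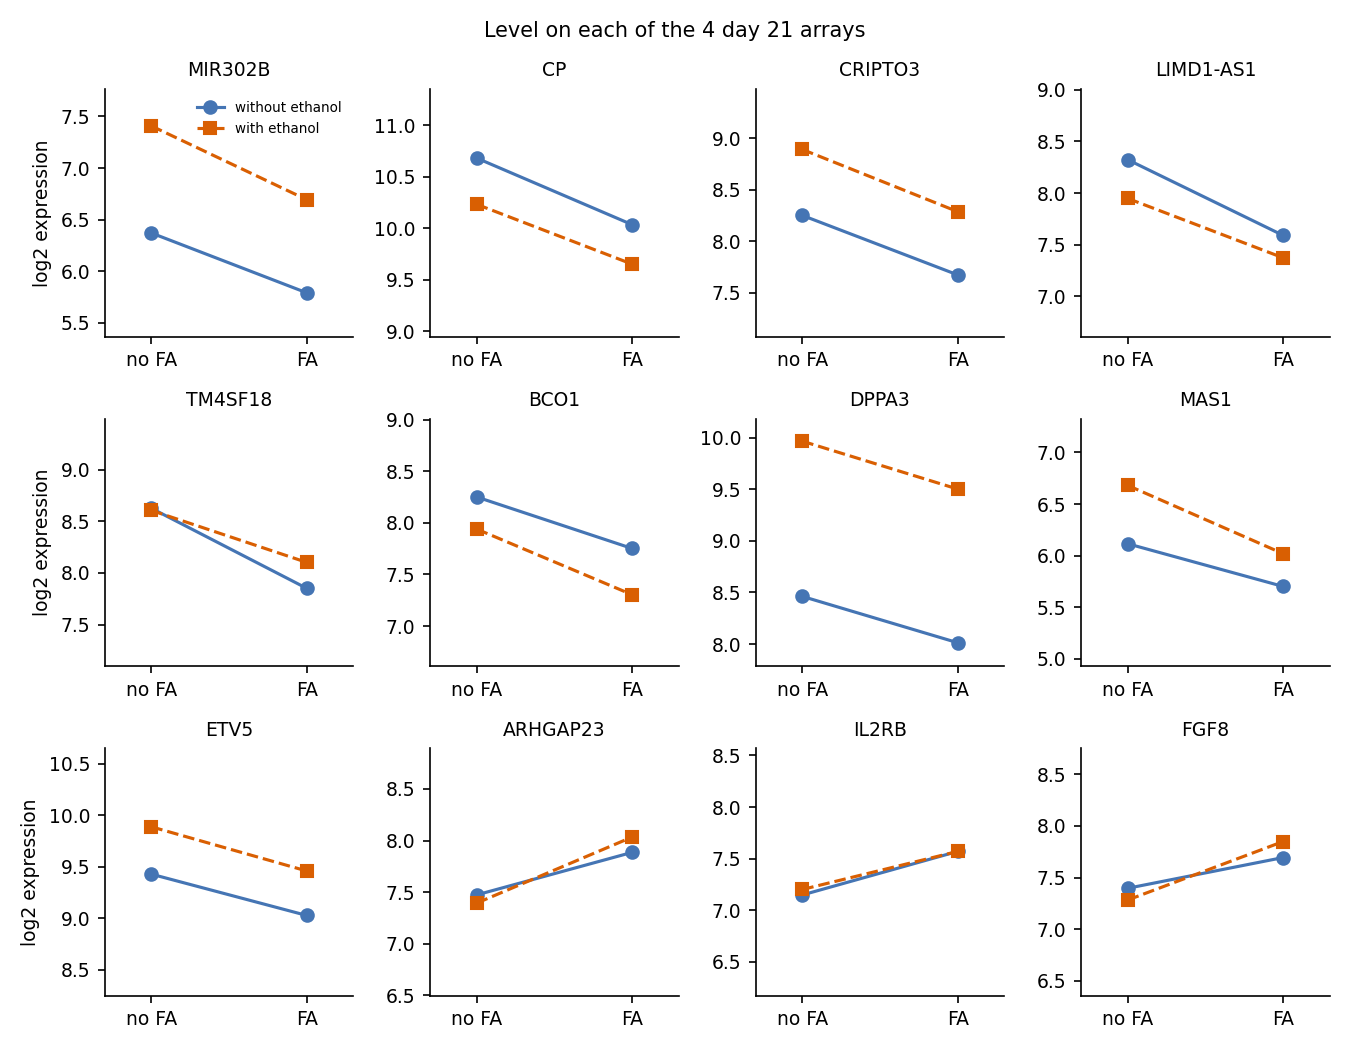
Log2 expression of 12 genes on each of the 4 day 21 arrays; each panel spans the same range, blue circles are the pair without ethanol and orange squares the pair with ethanol. Both lines slope down for the 9 genes from MIR302B to ETV5 and up for ARHGAP23, IL2RB and FGF8, and for DPPA3 the ethanol pair lies well above the other pair.

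Pluripotency transcripts were lower with FA in some cases, without a shift of the group. MIR302B, outside the rule for named genes and chosen after its values were seen, was at 6.37 untreated, 5.79 with FA, 7.41 with ethanol and 6.69 with both. The mean difference was -0.65 ± 0.15, and the neighbouring MIR302A, at 5.97, 5.70, 6.65 and 5.90, differed by -0.27 and -0.75. Both were below the median of all values on all 4 arrays and were tested only because they were bright earlier, at 9.93 and 9.29 in undifferentiated cells. DPPA3, a maternal and germ line factor that protects DNA methylation, was at 8.46, 8.01, 9.97 and 9.50, a difference of -0.45 and -0.46. Its second cluster differed by -0.23 and -0.34. DPPA2, a chromatin factor of pluripotent cells, was at 7.83, 7.47, 8.59 and 8.06.

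Of 23 pluripotency genes tested, 6 were higher and 10 lower in both pairs, with a median of -0.05 against -0.03 over all genes, which is close to the background shares. FGF4, a ligand made by pluripotent cells, was higher by 0.41 and 0.20, and LEFTY2, a Nodal inhibitor, by 0.32 and 0.24. The pairs disagreed in sign for the RNA-binding protein gene LIN28A, at 0.05 and -0.01, for the transcription factor gene SALL4, at 0.12 and -0.08, and for the DNA methyltransferase gene DNMT3B, at 0.08 and -0.02. SOX2, a core transcription factor of pluripotency, differed by -0.12 and -0.14, L1TD1 by -0.31 and -0.17, ZFP42 by -0.30 and -0.09 and GDF3, a ligand of the Nodal pathway, by -0.10 and -0.21. LEFTY2 and these 7 were chosen after their values were seen. POU5F1 and NANOG have no cluster of their own here and were not analysed.

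Of the 20 tested genes of the FGF and ERK feedback list, 7 were higher with FA in both pairs and 10 lower, against 26.4% and 44.3% of all genes tested. The list is given here by role, a split made after the values were seen. Of 5 tested ligands, 4 were higher with FA in both pairs and 0 lower (median 0.11), or 3 and 0 with centred arrays, where FGF2 was mixed. FGF8, which patterns the midbrain and the gastrulating embryo, was at 7.40 untreated, 7.69 with FA, 7.28 with ethanol and 7.85 with both, so both FA arrays were above both others. FGF17 differed by 0.14 and 0.08 and FGF2, the ligand that maintains human pluripotent cells, by 0.01 and 0.06, while FGF19 was mixed at 0.12 and -0.09. FGF9 was too dim to be tested, at 6.46, 6.06, 6.57 and 6.17, and was lower with FA in both pairs. The receptors did not move together: FGFR3 differed by 0.19 and 0.16, FGFR4 by 0.15 and 0.01, FGFR2 by 0.07 and -0.14 and FGFR1 by -0.01 and -0.22.

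Among the 10 tested genes that ERK signalling induces or that restrain it, 8 were lower in both pairs and 1 higher, with a median of -0.21 (8 and 1 also with centred arrays). Over all genes tested, 44.3% were lower in both pairs and 26.4% higher. All 5 inhibitors were lower: the Sprouty genes SPRY1, at -0.12 and -0.32, SPRY2, at -0.28 and -0.31, and SPRY4, at -0.28 and -0.23, and the related SPRED1, at -0.21 and -0.20, and SPRED2, at -0.14 and -0.17. SPRY2 was at 10.46 untreated, 10.19 with FA, 10.57 with ethanol and 10.25 with both, so its groups did not overlap. The ETS factor ETV5 was at 9.43, 9.03, 9.89 and 9.46, a mean of -0.41 ± 0.07. ETV1 differed by -0.26 and -0.19, and ETV4 was mixed at 0.21 and -0.11. Of the ERK phosphatases, DUSP6 differed by -0.06 and -0.20 and DUSP5 by 0.04 and 0.02. None of the 20 genes of the list passed the test. Brightness differed within the list. Of the 4085 brightest genes tested, 2330 were lower in both pairs and 566 higher, and of the 4085 dimmest 1172 and 1750. On the untreated day 21 array, SPRY2, SPRED1 and SPRED2 were at 10.46, 10.46 and 9.94. FGF8 and FGF17 were at 7.40 and 7.67 there, while SPRY4 was dim as well, at 7.58. The part of brightness in these counts was not tested.

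**Figure D3:**
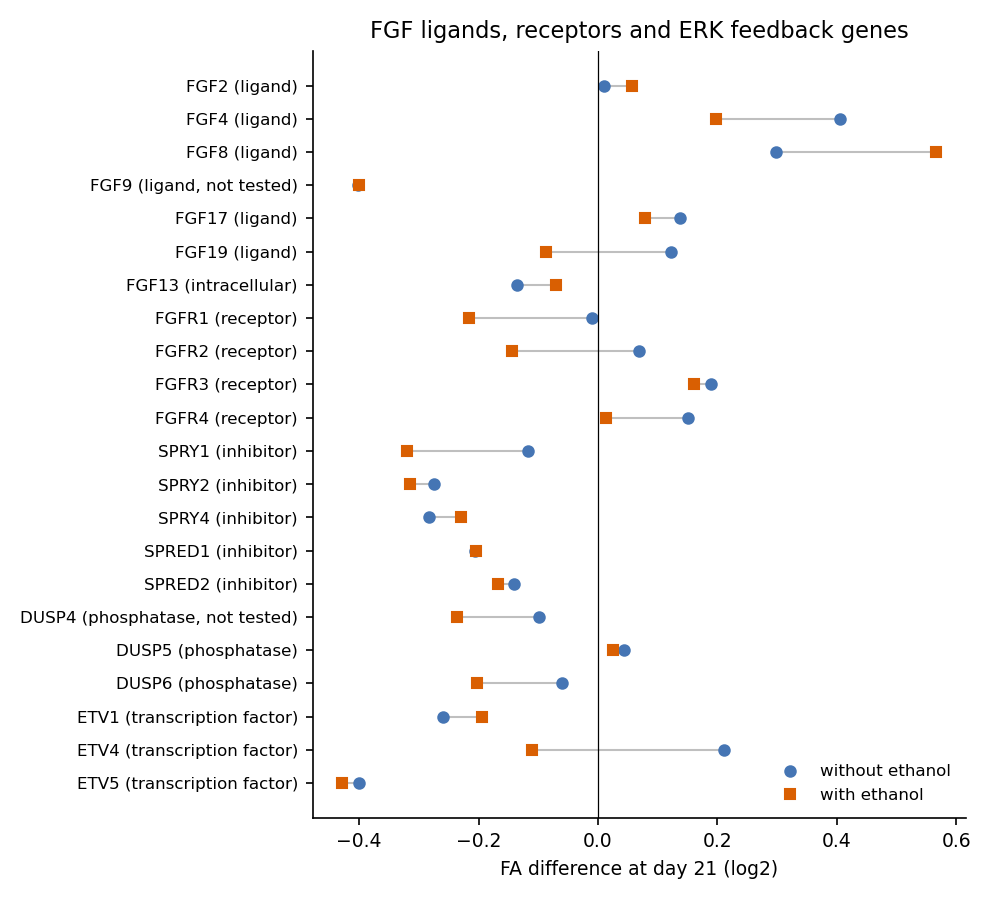
Log2 FA difference at day 21 of the 22 FGF and ERK feedback genes on the array, by role, without ethanol (blue circles) and with ethanol (orange squares); FGF9 and DUSP4 were too dim to be tested. The 5 inhibitors lie left of 0 in both pairs, with ETV1 and ETV5, and FGF2, FGF4, FGF8 and FGF17 lie right of it.

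The genes highest with FA were mostly dim. ARHGAP23 was at 7.47 untreated, 7.89 with FA, 7.39 with ethanol and 8.03 with both. Its mean difference of 0.53 ± 0.09 (limma adjusted p = 0.557) was the largest above 0, and its second cluster differed by only 0.20 and 0.09. IL2RB, an interleukin receptor chain, was at 7.15, 7.57, 7.20 and 7.57, and BBC3, the p53-regulated cell death gene also called PUMA, at 8.13, 8.47, 8.01 and 8.37. In all 3 the FA arrays lay above the others, as they did for each of the 15 named higher genes (background 18.3%, the 15 again chosen for their differences). IL2RB was below the median of all values (7.71) on every day 21 array and was tested only because it was brighter on day 7 arrays.

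The other named higher genes included the gastrin gene GAST, at 0.33 and 0.38, and the oxytocin gene OXT, at 0.37 and 0.33. GAST was at 7.32 untreated, 7.65 with FA, 7.20 with ethanol and 7.58 with both. It was thus below the median of all values (7.71) on every day 21 array and was tested only through the day 7 ethanol array. EGR4, an immediate early transcription factor, differed by 0.31 and 0.36, and PLLP, a myelin membrane protein gene, by 0.33 and 0.46. ZXDA, CPN2, ARHGDIG, SOWAHD, PRADC1, SCX and CLEC20A had means between 0.31 and 0.36. Of these, CPN2 and SCX were also below the median of all values on every day 21 array. When the genes tested were divided by mean level into 3 sets of equal size, 12 of the 15 named higher genes were in the dimmest set and 1 in the brightest, and of the 15 named lower genes 9 and 4. The median FA difference was 0.03 in the dimmest set, -0.04 in the middle and -0.05 in the brightest, and at day 7 these medians had the opposite signs (-0.03, 0.02 and 0.03). The part of this relation with brightness in the single genes was not tested. The array medians were 7.67 untreated, 7.70 with FA, 7.69 with ethanol and 7.70 with both. When the arrays were also centred on their medians, 2716 genes were higher in both pairs and 6308 lower, against 3231 and 5431 as deposited, so the balance of directions depends on the scaling.

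Gene lists of cell lineages differed in how many members were higher or lower with FA, and 0 members of any list passed the test. The counts are read beside brightness: of the 4085 genes of the dimmest set, 1750 were higher in both pairs and 1172 lower, and of the 4085 of the brightest set 566 and 2330. In bulk RNA, fewer cells of a type and less RNA per cell cannot be told apart. Of 23 neural progenitor genes tested, 12 were higher in both pairs and 1 lower (11 and 1 with centred arrays). The other 10 were mixed, PAX6 among them at 0.12 and -0.01. The list median was 0.05 against -0.03 over all genes, with 0.10 in the pair without ethanol and 0.03 in the pair with it. Over all 29 markers on the array, the mean level was 8.66 untreated, 8.77 with FA, 8.64 with ethanol and 8.61 with both. The Notch ligand gene DLL1 was at 8.63 untreated, 8.92 with FA, 8.53 with ethanol and 8.75 with both, a mean of 0.25. Of 15 Notch genes, 9 were higher and 2 lower, or 6 and 3 with centred arrays, and DLL1 and HES5 are in both lists. The feedback gene NRARP differed by 0.12 and 0.32, the target HES5 by 0.18 and 0.07 and the related HES6 by 0.25 and 0.09. FABP7, a radial glia gene, was mixed at 0.07 and -0.53, and IRX3 at 0.31 and -0.02. FABP7 was below the median of all values (7.71) on every day 21 array.

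Of 9 endoderm genes 6 were higher in both pairs and 1 lower (median 0.10), and of 10 early mesoderm genes 5 and 1 (median 0.09). The pioneer factor gene FOXA1 was at 8.22, 8.30, 8.27 and 8.60 and the mesoderm factor gene MESP1 at 8.12, 8.29, 8.15 and 8.41. CXCR4, a chemokine receptor gene, differed by -0.23 and -0.09. Only 6 of 16 endoderm markers, 6 of 16 heart and muscle markers and 3 of 16 endothelium and blood markers on the array exceeded the median of all values at day 21, against 21 of 29 neural progenitor markers, so these lists rest on few and mostly dim genes. Of 11 neural crest genes 4 were higher and 4 lower, and of 4 trophoblast genes 0 and 1. Of 24 axon guidance genes, 0 were higher and 13 lower in both pairs (median -0.09, and 0 and 17 with centred arrays), with the ephrin receptor gene EPHA7 at -0.36 and -0.20 and the netrin receptor gene UNC5C at -0.19 and -0.30. DCC was mixed at 0.02 and -0.53. Of 16 neuron genes 2 were higher and 7 lower, with the neurofilament gene NEFL at -0.36 and -0.08 and MAP2, a dendritic microtubule protein gene, at -0.07 and -0.35. The higher ones were ONECUT2, at 0.12 and 0.26, and LHX1, at 0.11 and 0.07.

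In the mesenchyme and matrix list, 3 of 14 were higher (21.4%) and 6 lower (42.9%), near the 26.4% and 44.3% of all genes. The median was -0.02 against -0.03 over all genes. POSTN and FN1 had the largest differences of the list, while TWIST1 was higher in both pairs, at 0.22 and 0.11. POSTN, the matrix protein periostin, was at 7.79 untreated, 6.93 with FA, 7.81 with ethanol and 7.51 with both, and fibronectin FN1 at 10.24, 9.99, 10.71 and 10.24. The difference of POSTN was -0.86 in the pair without ethanol and -0.29 in the pair with it. Of 18 HOX genes, the regulators of head-to-tail identity, 6 were higher and 6 lower, with HOXC8 at -0.48 and -0.21 and HOXB4 at 0.32 and 0.13. In the WNT list, 8 of 19 were higher and 5 lower, with the target gene SP5 at 0.29 and 0.32. Of 10 Hedgehog genes 4 were higher and 1 lower, or 3 and 1 with centred arrays. The target GLI1 differed by 0.23 and 0.34, and was below the median of all values (7.71) on every day 21 array.

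**Figure D4:**
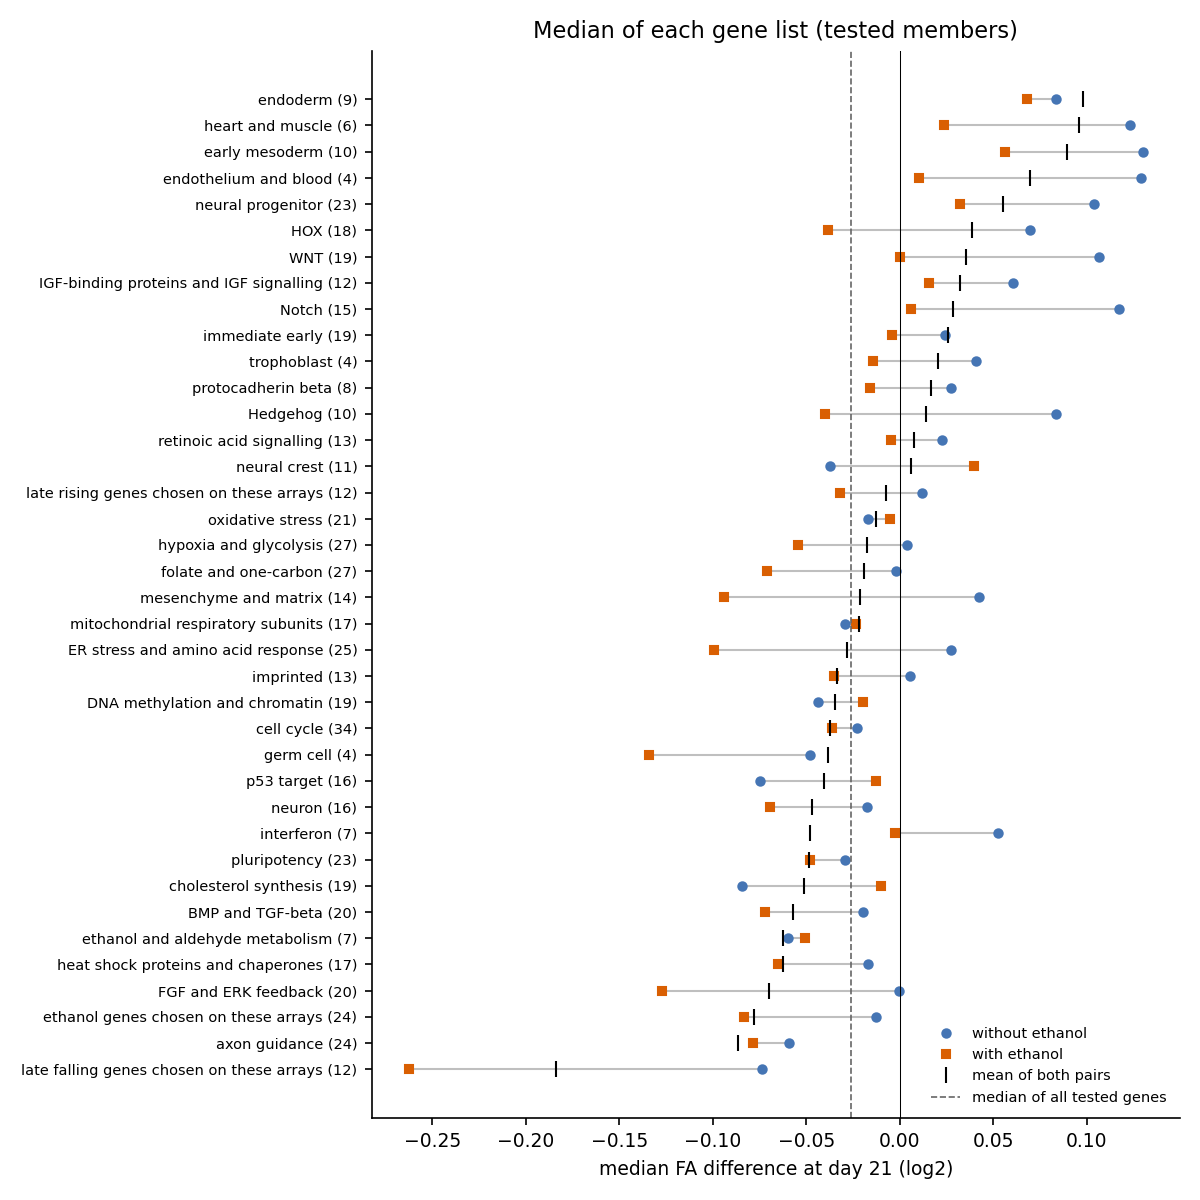
Median log2 FA difference at day 21 of the tested members of each of the 38 gene lists (number tested in brackets), without ethanol (blue circles), with ethanol (orange squares) and for the mean of both pairs (black ticks, medians of gene means, which need not lie between the others); the dashed line is the median of all genes tested, -0.03. Endoderm, heart and early mesoderm lists are at the top and axon guidance and the late falling genes at the bottom, and all medians lie within 0.3 of 0.

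Medians of the housekeeping and metabolic lists were near that of all genes tested. Their shares were not all near the background of 26.4% higher and 44.3% lower, and the part of brightness in them was not tested. Of 34 cell cycle genes, 4 were higher in both pairs (11.8%) and 19 lower (55.9%). CDK6, a kinase of the entry into the cycle, was at 9.18 untreated, 8.93 with FA, 9.23 with ethanol and 8.94 with both. The list median was -0.04 against -0.03 over all genes. Of 27 folate and one-carbon genes 5 were higher (18.5%) and 14 lower (51.9%), with a median of -0.02. The mitochondrial folate enzyme genes ALDH1L2 and MTHFD2 differed by -0.50 and -0.23 and by -0.23 and -0.24. ALDH1L2 was below the median of all values (7.71) on every day 21 array and was tested only because it was brighter earlier. Of 27 hypoxia and glycolysis genes 3 were higher (11.1%) and 12 lower (44.4%). Of 25 ER stress and amino acid response genes the counts were 4 (16%) and 10 (40%), and of 21 oxidative stress genes 5 (23.8%) and 9 (42.9%). Of 19 cholesterol synthesis genes 4 were higher (21.1%) and 8 lower (42.1%), with IDI1 at -0.33 and -0.20 and SQLE at -0.35 and -0.05. Of 16 p53 targets 5 were higher (31%) and 7 lower (44%). Among them, BBC3 and PHLDA3 (0.21 and 0.33) were higher and PMAIP1, another cell death gene, was lower at -0.31 and -0.24. The lists of 12 late falling genes (0 higher, 7 lower, median -0.18) and 24 ethanol genes (3 higher, 10 lower) were picked on these same arrays and are no independent evidence of direction.

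The FA difference was not shown to depend on ethanol, and the test could say little about it. Its 1 residual degree of freedom is the difference between the day 7 pairs. That difference includes the day 7 array with ethanol alone, described below as standing apart. For the difference between the pairs, the one with ethanol minus the one without, limma called 0 genes (0%) at an adjusted p under 0.05, with a lowest adjusted p of 1; at an unadjusted p under 0.05, 19 were higher (0.155%) and 31 lower (0.253%). TECRL, a gene of heart muscle calcium handling, was at 8.51 untreated, 7.47 with FA, 7.60 with ethanol and 7.75 with both. It was high in the untreated array alone, so the FA difference was -1.04 without ethanol and 0.14 with it (1.19 ± 0.23 between the pairs). RANBP3L was likewise high in the untreated array alone, at 7.89, 6.78, 7.00 and 6.66. DTX2, a regulator of Notch signalling, was at 7.68, 7.37, 7.17 and 7.85, and GABRG3, a GABA receptor subunit gene, at 7.50, 7.16, 7.49 and 8.01.

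In the other direction, DBX1, a homeobox gene of spinal cord interneuron progenitors, was at 10.87 untreated, 11.24 with FA, 10.90 with ethanol and 10.33 with both (difference -0.93 ± 0.28). FA was above its control in the pair without ethanol, by 0.37, and below it in the pair with ethanol, at -0.57. TMEM154 was at 6.56, 6.53, 7.54 and 6.67, high with ethanol alone, and NECAB1, a neuronal calcium-binding protein gene, at 8.18, 8.46, 8.31 and 7.75. MSL3B and CPM were the other named genes above 0, at 1.03 and 0.74, and TIMP3, RHD and GLYAT those below, from -0.70 to -0.85. The second cluster of TIMP3 was higher in both pairs, at 0.22 and 0.12. TMEM154 and the cluster used for TIMP3 were below the median of all values (7.71) on every day 21 array.

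The 30 named genes with the largest FA differences shared by both pairs at day 21 had smaller or opposite mean differences at day 7. They were chosen for their day 21 differences, so smaller values on another day follow from the choice and are no support. For FA at day 21 minus FA at day 7, limma called 0 genes (0%), with a lowest adjusted p of 0.362; at an unadjusted p under 0.05, 544 genes were higher (4.44%) and 1126 lower (9.19%). Without the day 7 FA array or the day 7 untreated array 4064 genes were called, the day 7 value then resting on the ethanol pair alone, and 0 when each of the other day 7 and day 21 arrays was left out in turn. Across genes the differences at the 2 days, which share no array, correlated at r = -0.53. At day 7 the array with ethanol alone stood apart: its mean correlation with its day was 0.990, while the others reached 0.994 to 0.995. It is the control of the day 7 pair with ethanol. Its part in the day 7 values was not tested. At day 21 the mean correlation was 0.996 for each array.

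TXNIP, an inhibitor of thioredoxin and of glucose uptake, had the largest difference above 0 between the days (1.00 ± 0.34, limma adjusted p = 0.362). At day 21 it was at 9.63 untreated, 9.87 with FA, 9.54 with ethanol and 10.25 with both, a mean of 0.47, and at day 7 the mean was -0.53, made by the pair with ethanol (0.02 without and -1.07 with ethanol). ARHGAP23, at 0.53 on day 21 and -0.22 on day 7, and VENTX, a homeobox gene, at 0.31 and -0.34, were higher in both pairs on day 21 and lower in both on day 7. VENTX was below the median of all values (7.71) on every day 21 array. LIMD1-AS1 had the largest difference below 0, at -0.65 on day 21 and 0.45 on day 7, and GKAP1 was at -0.45 and 0.49. CP differed by 0.01 without and 0.28 with ethanol at day 7, when its level was 6.38 untreated against 10.68 at day 21. Of the 11 genes at least 1.3-fold lower at day 21, 3 were lower, 3 higher and 5 mixed in the day 7 pairs.

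**Figure D5:**
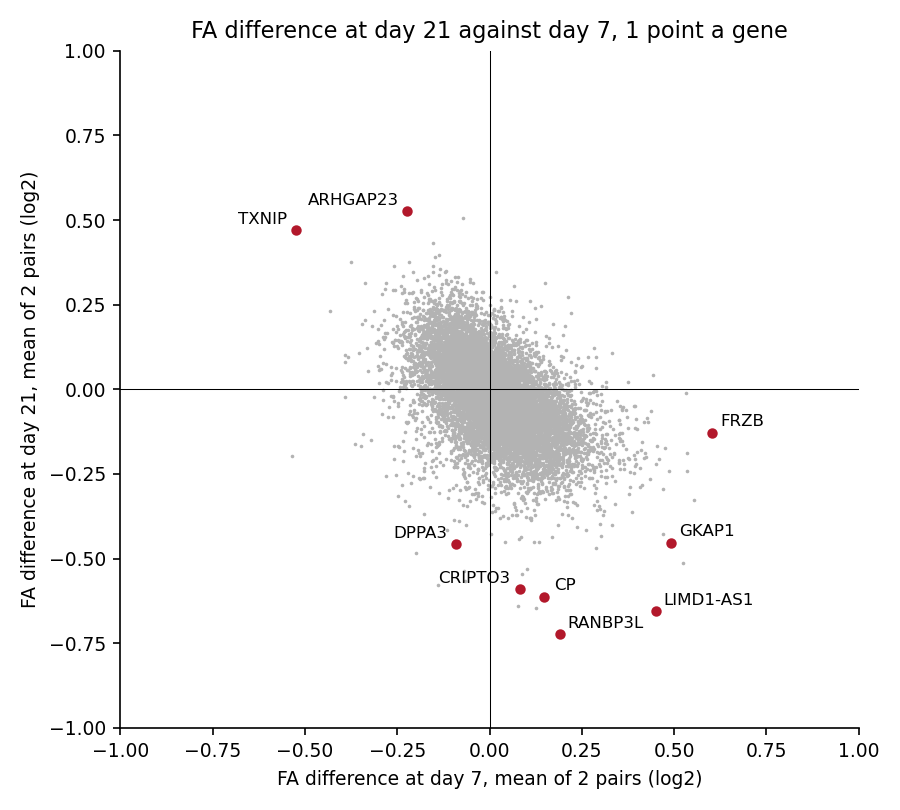
Each point is 1 of the 12254 genes tested, with the mean log2 FA difference of the 2 pairs at day 7 on the horizontal axis and at day 21 on the vertical axis; 9 genes are named. The cloud slopes from upper left to lower right (r = -0.53), with TXNIP and ARHGAP23 at the upper left and LIMD1-AS1 and GKAP1 at the lower right.

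Taken on their own, the 4 day 21 arrays gave 4 calls, all lower with FA: CP, CRIPTO3, LIMD1-AS1 and MIR302B, each at a limma adjusted p of 0.0389. That fit has 1 residual degree of freedom, the difference between the pairs. The same number of genes was called when any of the 4 day 7 arrays was left out of the larger fit. That leaves the same degree of freedom, so it is the same test and no further support.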

How the data were processed

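Total RNA of embryoid bodies was labelled as biotinylated cDNA and hybridized to Affymetrix whole-transcript arrays, per the labels' protocols. The deposited log2 expression values were made by the authors with RMA; the submitters' processing notes name Affymetrix Expression Console 1.3.1. The log base was inferred from the values, and the files' genome build was not given in the sources used here. RMA equalizes the distributions of the arrays, so a shift shared by most genes would not be seen, and differences of dim genes are compressed.

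Of 33297 clusters, 19460 had 1 gene symbol, 1754 several and 12083 none in the table used; 19429 Entrez IDs were found in RefSeq. Genes were named from clusters with 1 symbol (18417 genes), the brightest cluster standing for the 769 genes with several. A gene was tested where at least 1 array was above 7.71, the median over all arrays and clusters (12254 genes). One linear model over the 9 arrays (limma 3.58.1, R 4.3.3) held day, the undifferentiated array, and ethanol and FA effects of each day. Its 2 residual degrees of freedom are the differences between the pairs of each day, and the FA effect at day 21 is the mean of the matched pairs. The difference between pairs at day 21 was tested with a term of its own, which left 1 degree of freedom, the difference between the day 7 pairs. P-values were adjusted with the Benjamini-Hochberg method, threshold 0.05. The number of arrays limits the precision. The fit was tested on simulated data.

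Comparisons, the rule for named genes and the 38 gene lists were chosen with earlier results of these data known. Since no gene passed, the rule took in each direction the 15 genes with the largest smaller pair difference, the 6 largest differences between pairs and between days, and up to 4 genes of each list. Small RNAs and provisional names were passed over (2 higher, 3 lower). Alternatives covered the filter, several clusters of a gene, centring, the ethanol term, the arrays in the fit, an intensity trend and each day 7 or day 21 array left out.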

Additional observations from a re-analysis of the deposited data

How the results depend on the processing

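The count of genes called for FA at day 21 was 0 with no filter, a stricter filter, the mean of a gene's clusters, centred arrays, 1 ethanol effect for both days and an intensity trend in the prior. It was 4 with the day 21 arrays alone, and between 0 and 4 with each day 7 or day 21 array left out, the higher count being that without any 1 day 7 array. Without a day 7 array, the only residual left is the difference between the day 21 pairs. Those settings therefore repeat the test on the day 21 arrays alone. The count at 1.5-fold in both pairs was 4 with centred arrays (CP, CRIPTO3, LIMD1-AS1 and MIR302B) and 13 at 1.3-fold, an alternative chosen after seeing the data. For FA at day 21 minus day 7, the count ranged from 0 to 4064 over the arrays left out; the higher count came without the day 7 FA or the day 7 untreated array, when the day 7 value rests on the ethanol pair alone. The count for the difference between pairs was 0 in every alternative run, and leaving out an array was not run there because the term needs both pairs.

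Leaving out a day 21 array turns the value into that of the other pair. The FA value was followed for 166 named genes, without those named only for the difference between pairs, such as TECRL. Of the 166, 16 whose pairs disagreed changed sign: ALDH1A1 (-0.0049 to 0.35), BOC (-0.21 to 0.085), DCC (-0.53 to 0.024), FABP7 (-0.53 to 0.067), FST (-0.41 to 0.099), GATA3 (-0.089 to 0.010), HAND1 (-0.029 to 0.19), HBE1 (-0.065 to 0.11), IGFBP7 (-0.38 to 0.022), IRX3 (-0.019 to 0.31), PCDHB11 (-0.0071 to 0.092), PCDHB14 (-0.018 to 0.12), PCDHB9 (-0.30 to 0.079), PDGFRA (-0.38 to 0.071), RHD (-0.72 to 0.038) and TDRD12 (-0.097 to 0.32). None of the 166 changed sign under the other alternatives. The fit itself pairs the arrays on ethanol; no fit with a replicate block was added because the labels carry no replicate numbers.

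Medians of gene lists moved by more than the SD between the pairs as follows. With no filter, they were -0.0011 for all genes, -0.0049 for pluripotency, 0.077 for endoderm, 0.060 for trophoblast, -0.0070 for ethanol and aldehyde metabolism, 0.032 for interferon and -0.050 for axon guidance. With a stricter filter, they were -0.064 for neural crest, 0.22 for endothelium and blood, 0.080 for trophoblast, -0.067 for imprinted and -0.042 for axon guidance. With centred arrays, they were -0.044 for all genes, -0.066 for pluripotency, -0.21 for germ cell (-0.056 over the 4 genes tested as deposited, since the filter on centred values also changes the genes), -0.030 for oxidative stress, -0.080 for ethanol and aldehyde metabolism, -0.055 for cell cycle, -0.052 for DNA methylation and chromatin, -0.10 for axon guidance and -0.039 for mitochondrial respiratory subunits, and with the mean of clusters -0.028 for the last. With 1 day 21 array left out, list medians lay between -0.26 and 0.13, and those of HOX, Hedgehog, retinoic acid signalling, neural crest, trophoblast, protocadherin beta, immediate early, hypoxia and glycolysis, ER stress and amino acid response, imprinted, interferon, mesenchyme and matrix, and late rising genes changed sign. Under the other alternatives the sign changed for interferon, neural crest, retinoic acid signalling, mesenchyme and matrix, germ cell, Hedgehog and protocadherin beta. The genes that enter a list differ between filters.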
